A study of Mus musculus with 6 samples.

Results

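The genes that make and regulate nitric oxide, and that share out its precursor arginine, were examined in RNA-seq libraries of mouse heart after ischemia/reperfusion. The set was given by symbol as Nos1, Nos2, Nos3, Arg1, Arg2, Ass1, Asl, Odc1, Ddah1 and Ddah2. Of these 10 genes, 9 were rows of the count table, which holds 27482 gene symbols, and Arg1 was not analysed here. The genes were selected on their measured counts in these same groups, with the difference known, so their values between the groups are a description and carry no p-value. The 3 libraries of the AAV9-hFNDC4 group are from male mice given an AAV9 vector that overexpresses FNDC4, and the 3 of the AAV9-CTRL group are from mice given a control AAV9 vector. AAV9, a serotype of adeno-associated virus, readily reaches the heart, and FNDC4 is a secreted protein with a fibronectin type III domain. All mice in both groups had ischemia/reperfusion surgery, in which blood flow to heart muscle is stopped and restored, and hearts were collected 24 h later. The sources used here do not give the promoter of the vector, the strain and age of the mice, or whether hearts were pooled. No label says that the libraries are of separate animals, so the spread between them may be technical. Fndc4 itself was not analysed here, so no value of it checks the vector labels.

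Nitric oxide is a short-lived gas that relaxes vessels and, in large amounts, acts in host defence. Nitric oxide synthases make it from arginine, with neuronal (Nos1), inducible (Nos2) and endothelial (Nos3) forms, the last known for its place in the vessel lining of the heart. Arginase competes for the same arginine and yields ornithine, from which ornithine decarboxylase (Odc1) begins polyamine synthesis. Ass1 and Asl rebuild arginine from citrulline, and Ddah1 and Ddah2 degrade asymmetric dimethylarginine, an inhibitor of the synthases.

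Total counts were 32975817 to 36074046 per library. Genes with any count numbered 18717 to 18863 in the AAV9-hFNDC4 libraries and 20431 to 20870 in the AAV9-CTRL libraries. Counts near 0 below that are higher in the AAV9-CTRL libraries go the same way as this difference between whole libraries. Its part in them was not tested. The labelled tissue was checked against markers chosen for each cell type. Of 14 cardiomyocyte markers, 2 reached 1 CPM, a count scaled to a TMM-normalized library of 1000000, in at least 3 libraries, and their summed level was 43.2 to 44.6 CPM in the AAV9-hFNDC4 libraries and 56.9 to 58.6 CPM in the AAV9-CTRL libraries. Most of that sum was Tnnt2, with a mean and SD of 38.1 ± 0.669 against 51.7 ± 1.71 CPM. Myl7, Pln and Nkx2-5 had no counts. Most listed markers of heart muscle were thus absent or nearly so, and the groups are named here by their labels. Of 11 fibroblast markers, 7 reached that level, with a summed level of 11965 to 12686 CPM against 7498 to 8629 CPM, mostly from Fn1 and Vim, while Dcn had 7 counts against 2 and Lum and Tcf21 had 0 against 1. Of 7 smooth muscle and pericyte markers, 2 reached it, with 531 to 594 CPM against 297 to 359 CPM, nearly all from Pdgfrb and Cspg4. The part of these differences in the results below was not tested. In bulk RNA, fewer cells of a type and less RNA per cell cannot be told apart.

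Of the 9 genes measured, 6 passed the filter on low counts. As a description only, since the genes were selected on this difference, Nos2 lay past the threshold set for all genes as higher, Odc1 and Ddah2 as lower, and Nos3, Ass1 and Asl did not reach it (edgeR quasi-likelihood test, Benjamini-Hochberg adjusted over all genes). That is 1 gene higher, against 22.1% of all 14663 genes tested, and 2 lower, against 25.0%. The same 3 genes were those whose groups did not overlap, 1 higher and 2 lower, and groups did not overlap in 56.6% of all genes tested, 27.1% as higher and 29.5% as lower. With about 47.1% of all genes called, these counts show nothing particular to the set. The genes under the filter were Nos1, Arg2 and Ddah1. Fold changes are given on the log2 scale, as AAV9-hFNDC4 over AAV9-CTRL, with the standard error (SE). Values after ± are SD over 3 libraries.

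**Figure D1:**
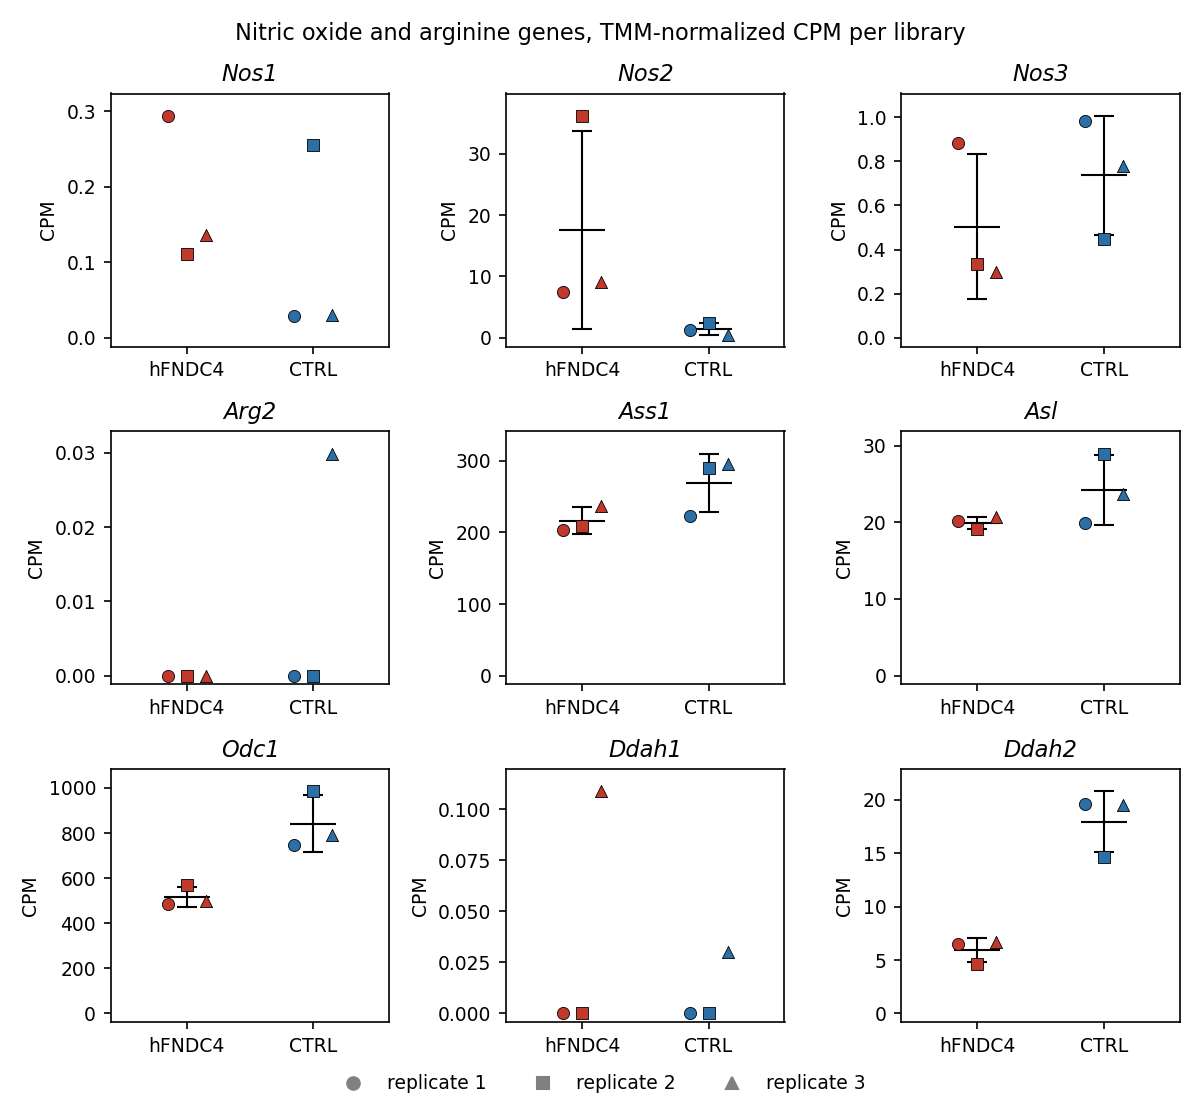
Level of each of the 9 measured genes, in CPM with libraries normalized by TMM, in the 3 libraries of each group (hFNDC4 and CTRL, marker shape gives the replicate number). Bars show the mean ± SD for the 6 genes that passed the filter, and the Nos2 value of AAV9-hFNDC4 replicate 2 (36.2 CPM) lies far above the other libraries.

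Nos2, the inducible synthase (GRCm38, chromosome 11, 78920787 to 78960254), produces nitric oxide for long periods once it is transcribed. It stood at 7.43, 36.2 and 9.12 CPM in AAV9-hFNDC4 replicates 1, 2 and 3, and at 1.27, 2.45 and 0.509 CPM in AAV9-CTRL replicates 1, 2 and 3. The groups did not overlap, but the spread within each was wide, with the highest library 4.87 times the lowest in the first and 4.83 times in the second. The raw counts behind these values were 278, 1306 and 336 against 44, 77 and 17. The group means were 17.6 ± 16.1 CPM and 1.41 ± 0.980 CPM, a log2 fold change of 3.64 (SE 0.71), or 12.5-fold. Leaving out AAV9-hFNDC4 replicate 2 gave a log2 fold change of 2.56, and leaving out AAV9-CTRL replicate 2 gave 4.29. When genes of low count were not filtered out, its log2 fold change was 3.66 and it no longer reached the threshold over all genes.

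Markers of macrophages and monocytes, which can make Nos2, are given beside it. Of 15 such markers, 6 reached 1 CPM in at least 3 libraries, and they differed in direction. The summed level was 39.5 to 45.7 CPM in the AAV9-hFNDC4 libraries and 51.2 to 60.7 CPM in the AAV9-CTRL libraries, a difference carried mostly by Cd68, at 11.7 ± 1.40 against 27.9 ± 2.94 CPM. Itgam had 0 counts against 168, and 70% of its exon bases are shared with Gm49368 on the same strand. Mertk was higher, at 13.9 ± 1.42 against 8.36 ± 1.20 CPM (log2 fold change 0.73, SE 0.17, edgeR adjusted p = 0.0042). Ccr2 had 84 counts against 32 and Cd14 was at 6.86 ± 1.39 against 6.16 ± 0.394 CPM, and neither passed. C1qb had no counts, Adgre1 had 1 count against 5, and Ptprc, the marker of all leukocytes, had 10 counts against 9. Of 8 neutrophil markers, 1 reached 1 CPM in at least 3 libraries, and their sum was 0.267 to 0.788 CPM against 2.39 to 3.21 CPM. That sum was mostly Mmp9, with 26 counts against 138, and Mpo, with 22 against 91. Ly6g and Cxcr2 each had 0 counts against 1, so these were absent or nearly so in both groups. The part of these cells in the level of Nos2 was not tested.

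Nos3, the endothelial synthase (chromosome 5, 24364810 to 24384474), gives the low, calcium-dependent output of vessels. Its levels were 0.881, 0.333 and 0.299 CPM in the AAV9-hFNDC4 libraries and 0.984, 0.446 and 0.778 CPM in the AAV9-CTRL libraries. The groups overlapped, and the log2 fold change of -0.54 (SE 0.56) was smaller than its error. With 11 to 34 counts per library, a moderate difference was not detectable at this depth. Of its exon bases, 32.3% are shared with Atg9b and Gm15587 on the other strand, whose reads cannot be told apart without a stated strand setting. Of 14 endothelial markers, 4 reached 1 CPM in at least 3 libraries. Emcn and Cldn5 had no counts, Cdh5 had 1 count against 5, and the summed level of 203 to 225 CPM against 231 to 249.5 CPM was nearly all Eng.

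Nos1, the neuronal synthase, which is also found at the calcium stores of muscle, had 11, 4 and 5 counts in the AAV9-hFNDC4 libraries and 1, 8 and 1 in the AAV9-CTRL libraries. These counts overlap and lie under the filter, so no fold change is given. Neuronal markers were near 0 as well, with 1 of 8 reaching 1 CPM in at least 3 libraries and no counts of Snap25. Their sum was 0.471 to 0.625 CPM against 5.04 to 8.17 CPM, the latter mostly from Tubb3 and Nefm.

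Between genes, levels are compared per kilobase of exon. Among the synthases, Nos2 made up 87.7% to 98.9% of the summed level per kilobase of Nos1, Nos2 and Nos3 in the AAV9-hFNDC4 libraries, against 38.2% to 81.1% in the AAV9-CTRL libraries. The 2 ranges did not overlap, which restates the difference in Nos2 that the set was selected on. In the AAV9-CTRL libraries these shares rest on 44, 77 and 17 counts of Nos2 and 34, 14 and 26 counts of Nos3. In the AAV9-CTRL libraries the order of levels per kilobase was Odc1 (381 ± 57.2 CPM per kb), Ass1 (159 ± 23.9), Ddah2 (13.3 ± 2.11), Asl (8.12 ± 1.52), Nos2 (0.329 ± 0.228), Nos3 (0.178 ± 0.0656) and Nos1. There, Nos2 at 0.118 to 0.571 and Nos3 at 0.108 to 0.238 overlapped, while the other neighbours from Odc1 to Nos2 did not. In the AAV9-hFNDC4 libraries Odc1 and Ass1 again led, at 234 ± 19.8 and 128 ± 10.8 CPM per kb. Asl (6.69 ± 0.260), Ddah2 (4.39 ± 0.848) and Nos2 (4.09 ± 3.76) followed. Nos2, at 1.73 to 8.42 CPM per kb, overlapped both Asl and Ddah2 in that group, while Asl and Ddah2 did not overlap each other.

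**Figure D2:**
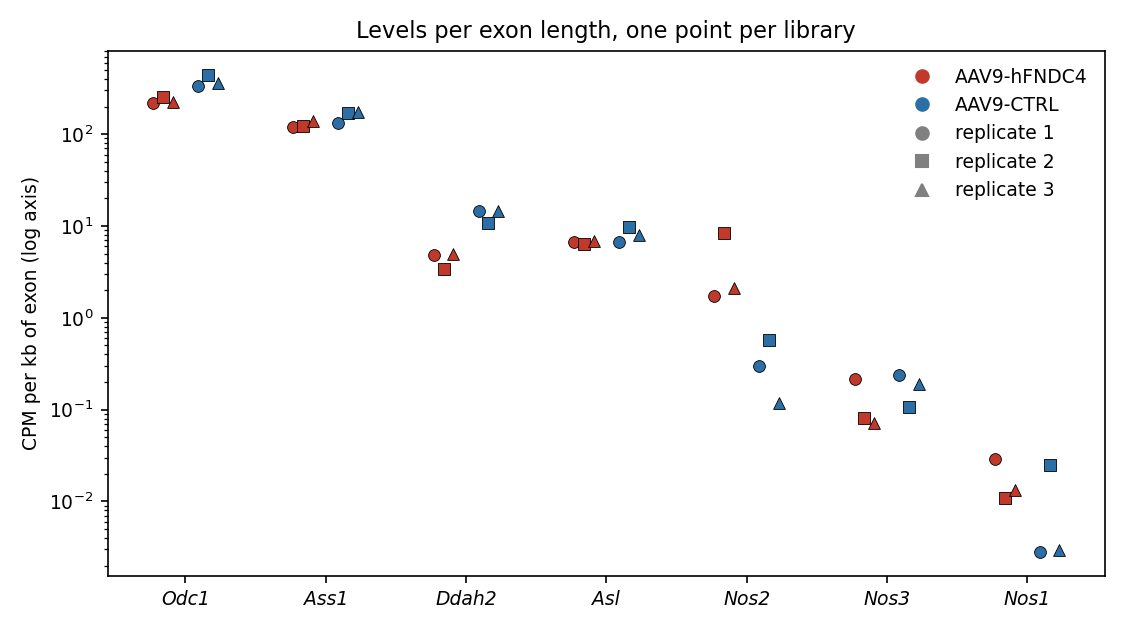
Level per kilobase of exon (log axis, in CPM per kb) of the 7 genes with counts in every library, 1 point per library, with colour for the group and marker shape for the replicate number. Odc1 and Ass1 lie above 100 CPM per kb in all 6 libraries, and Nos2 lies below Ddah2 in every AAV9-CTRL library but above it in AAV9-hFNDC4 replicate 2.

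Ass1, argininosuccinate synthase, and Asl, argininosuccinate lyase, catalyse consecutive steps that turn citrulline back into arginine. Ass1 (chromosome 2, 31470207 to 31520672) stood at 204, 209 and 238 CPM in the AAV9-hFNDC4 libraries and at 223, 289.9 and 296 CPM in the AAV9-CTRL libraries. The groups overlapped, since AAV9-CTRL replicate 1 lay below AAV9-hFNDC4 replicate 3. The means were 217 ± 18.3 and 269.6 ± 40.6 CPM, and the log2 fold change of -0.31 (SE 0.13) became -0.03 with a correction for transcript length. Ass1 lay past the threshold as lower without AAV9-CTRL replicate 1 (-0.41), with DESeq2 (-0.32) and with no low-count filter (-0.30).

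Asl (chromosome 5, 130011258 to 130029247) was at 20.1, 19.1 and 20.6 CPM against 20.0, 29.0 and 23.8 CPM. AAV9-CTRL replicate 1 again fell within the range of the other group. The log2 fold change was -0.28 (SE 0.15). It was -0.37 without AAV9-CTRL replicate 1, where Asl lay past the threshold as lower. The ratio of Ass1 to Asl per kilobase was 17.8 to 20.2 in the AAV9-hFNDC4 libraries and 17.6 to 21.9 in the AAV9-CTRL libraries. The first range lay within the second.

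Arginine also enters cells through cationic amino acid transporters, and 7 of the 8 listed transporter genes were tested. Of these, 1 was higher, 1 lower and 5 did not pass, so 28.6% were called, below the 47.1% of all genes tested. Slc7a2, the inducible transporter CAT2 that supplies arginine to macrophages making nitric oxide, was at 72.1, 140.3 and 84.6 CPM in the AAV9-hFNDC4 libraries and at 24.7, 17.3 and 21.7 CPM in the AAV9-CTRL libraries. Every library of the first group was above every library of the second, and replicate 2 was again the highest of the first group. The log2 fold change was 2.22 (SE 0.24, edgeR adjusted p = 6.64e-05), and between 1.84 and 2.41 in all alternatives. Slc7a1, the transporter CAT1 of most cells, was singled out after its values were seen and did not pass, with 473 ± 104 against 445 ± 142 CPM (log2 fold change 0.09, SE 0.24, edgeR adjusted p = 0.783).

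Slc7a3 (CAT3) had a log2 fold change of -0.49 (SE 0.16, edgeR adjusted p = 0.0251) and was called lower, although its groups overlapped. Its call ended without AAV9-hFNDC4 replicate 1 (-0.40) or replicate 3 (-0.42), without AAV9-CTRL replicate 1 (-0.37) or replicate 3 (-0.44), and with the length correction (-0.41). Slc7a7, an exporter of arginine that pairs with Slc3a2, had a log2 fold change of 0.51 (SE 0.20, edgeR adjusted p = 0.0536). It did pass when AAV9-hFNDC4 replicate 2 (0.66) or AAV9-CTRL replicate 2 (0.57) was left out, with the length correction (0.63), with DESeq2 (0.50), with upper-quartile scaling (0.56) and with no low-count filter (0.52). Slc7a6, its relative, had -0.27 (SE 0.14, edgeR adjusted p = 0.124). It passed without AAV9-CTRL replicate 2 (-0.42).

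Nitric oxide synthases need tetrahydrobiopterin as a cofactor, and all 8 listed genes of its synthesis and recycling were tested. Of these, 6 were lower and 1 higher (87.5% beside 47.1% of all genes tested), with a median log2 fold change of -0.41 beside 0.01 over all genes tested. As the list was chosen with earlier results of these data known, these values only describe it. Qdpr, which recycles the cofactor, was at 39.1 ± 2.0 against 57.2 ± 2.30 CPM (log2 fold change -0.55, SE 0.10, edgeR adjusted p = 0.00132), and 21.1% of its exon bases are shared with another annotated gene. Spr, the last enzyme of synthesis, was lower with -0.39 (SE 0.11) and Pcbd1 with -0.56 (SE 0.15), and Gchfr (-0.39, SE 0.13) and Pcbd2 (-0.44, SE 0.13) were lower as well. With the length correction 1 gene of the list was called lower and the list median was 0.03. Qdpr (-0.24), Spr, Pcbd1 (-0.11), Gchfr (0.09) and Pcbd2 (0.05) did not pass with it. Spr also lost its call without AAV9-hFNDC4 replicate 3 (-0.35), and Pcbd2 without AAV9-CTRL replicate 3 (-0.41). Gchfr lost it without AAV9-hFNDC4 replicate 1 (-0.34), 2 (-0.40) or 3 (-0.43), without AAV9-CTRL replicate 2 (-0.28) or 3 (-0.39), and with upper-quartile scaling (-0.34).

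Pts, which acts in the middle of the synthesis, was the higher gene, with a log2 fold change of 0.41 (SE 0.15, edgeR adjusted p = 0.0370) and 0.82 with the length correction. It lost its call without AAV9-hFNDC4 replicate 1 (0.43), 2 (0.42) or 3 (0.40) and without AAV9-CTRL replicate 1 (0.30) or 3 (0.40). Gch1, the rate-limiting enzyme of the route, which was singled out after its values were seen, did not pass (log2 fold change 0.09, SE 0.20, and -0.18 without AAV9-hFNDC4 replicate 2). Its levels were 46.5, 78.2 and 50.3 CPM in the AAV9-hFNDC4 libraries and 57.0, 43.3 and 64.2 CPM in the AAV9-CTRL libraries. AAV9-hFNDC4 replicate 2, the library with the most Nos2, thus also had the most Gch1, Slc7a2 and Slc7a1 of all 6 libraries. In the AAV9-CTRL group the library with the most Nos2, replicate 2, had the least Gch1, Slc7a2 and Slc7a1 of its group. Neither order is particular to these genes. Prkg2 and Aldh18a1, from other lists, were also highest in AAV9-hFNDC4 replicate 2 and lowest of their group in AAV9-CTRL replicate 2. Odc1 differed, with replicate 2 the highest of both groups. The part of differences between whole libraries in these orders was not tested.

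**Figure D3:**
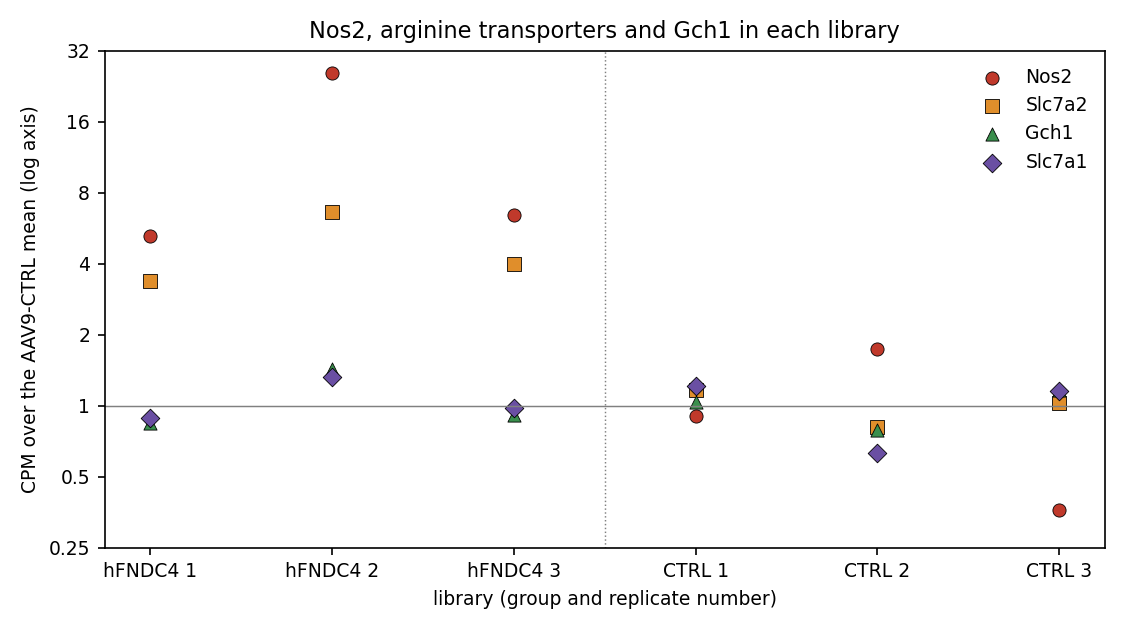
Level of Nos2, Slc7a2, Gch1 and Slc7a1 in each library, divided by the mean of the 3 AAV9-CTRL libraries (log axis, a value of 1 is the AAV9-CTRL mean). All 4 genes peak in AAV9-hFNDC4 replicate 2, and only Nos2 and Slc7a2 lie above the AAV9-CTRL libraries in all 3 AAV9-hFNDC4 libraries.

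Among genes whose proteins bind the synthases, 5 of 11 tested were lower and 6 did not pass, so 45.5% were called, against 47.1% of all genes tested. Hsp90aa1 and Hsp90ab1, the chaperones that aid Nos3 and Nos2, were lower with log2 fold changes of -1.58 (SE 0.16, edgeR adjusted p = 2.93e-05) and -0.78 (SE 0.12, edgeR adjusted p = 0.000286). Calm2 and Calm3, which encode calmodulin, the calcium sensor of the synthases, did not pass, with log2 fold changes of -0.19 (SE 0.10) and -0.14 (SE 0.11), which were 0.21 and 0.02 with the length correction. Dynll1, a light chain that binds Nos1, was lower with -0.42 (SE 0.11).

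Ddah2 (chromosome 17, 35059035 to 35062095) degrades asymmetric dimethylarginine. It stood at 6.49, 4.60 and 6.65 CPM in the AAV9-hFNDC4 libraries and at 19.6, 14.6 and 19.5 CPM in the AAV9-CTRL libraries. The groups lay well apart, and replicate 2 was the lowest library of each. The means were 5.91 ± 1.14 and 17.9 ± 2.85 CPM, a log2 fold change of -1.60 (SE 0.19), or 3.03-fold lower, and -1.24 with the length correction. Over the 6 libraries left out in turn the log2 fold change stayed between -1.72 and -1.44. Its paralog Ddah1, the better known enzyme of this step, had 0, 0 and 4 counts against 0, 0 and 1. A count of 0 allows up to 3 counts, which is 0.0801 to 0.0956 CPM in these libraries, so no fold change is given.

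The methylarginines that Ddah2 removes come from protein arginine methyltransferases. In the list of methyltransferases and creatine genes, 2 of 10 tested were lower and 8 did not pass, so 20% were called, below the 47.1% of all genes tested. Prmt1, the main enzyme of asymmetric dimethylation, was at 117 ± 7.86 against 196 ± 17.3 CPM, with a log2 fold change of -0.75 (SE 0.11, edgeR adjusted p = 0.000214). The other lower gene was Slc6a8, the creatine transporter, with -0.41 (SE 0.10, edgeR adjusted p = 0.00577). Prmt5, which makes the symmetric mark, had -0.24 (SE 0.12) and Prmt7 -0.26 (SE 0.11), and neither passed. Without AAV9-CTRL replicate 2 the count of lower genes in the list was 5, with Prmt5 (-0.35) and Prmt7 (-0.31) among them.

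Arg2, the mitochondrial arginase (chromosome 12, 79130777 to 79156301), had 1 count in AAV9-CTRL replicate 3 and 0 in the other 5 libraries, so a difference was not detectable. Past arginase, ornithine feeds polyamines through Odc1. Odc1 (chromosome 12, 17544794 to 17551505) was the most abundant gene of the set, at 487, 568 and 498 CPM in the AAV9-hFNDC4 libraries and 746, 984 and 793 CPM in the AAV9-CTRL libraries. Every AAV9-hFNDC4 library was below every AAV9-CTRL library, and replicate 2 was the highest of each group. The means were 518 ± 43.7 and 841 ± 126 CPM, a log2 fold change of -0.70 (SE 0.13), or 1.62-fold lower. It was -0.53 with the length correction and between -0.77 and -0.57 when each library was left out.

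Odc1 and Ddah2 were the lower genes of the set, and the DNA just upstream of their first annotated exon is shown for that reason, from RefSeq promoter windows of GRCm38.p6, on the + strand and 5′ to 3′. The first is chr12:17544623-17544793 and the second is chr17:35058785-35059034, and capitals mark GC boxes (GGGCGG on either strand).
Odc1: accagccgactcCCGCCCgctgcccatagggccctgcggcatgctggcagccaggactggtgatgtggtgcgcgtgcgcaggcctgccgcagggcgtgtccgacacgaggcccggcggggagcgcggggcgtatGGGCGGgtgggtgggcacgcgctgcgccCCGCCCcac
Ddah2: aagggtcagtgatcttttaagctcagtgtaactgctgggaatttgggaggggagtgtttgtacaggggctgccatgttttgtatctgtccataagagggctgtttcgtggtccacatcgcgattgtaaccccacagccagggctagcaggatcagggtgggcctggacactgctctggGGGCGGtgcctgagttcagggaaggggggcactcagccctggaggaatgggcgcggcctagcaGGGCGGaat
Of the set, 5 genes had a window in that table (Nos1, Ass1, Odc1, Ddah1 and Ddah2), and Nos2, Nos3, Arg1, Arg2 and Asl did not. In the full 300-base windows, which run on past the start, Odc1 had 4 GC boxes, Ddah2 had 3, Ass1 had 1, and Nos1 and Ddah1 had 0. At least 1 GC box was in 35.7% of all 32851 windows of this length. The E-box CACGTG, searched on both strands, was in 7.15% of windows and was found in that of Ass1 only. The hypoxia response element core ACGTG, which lies within that E-box, was in 19.6% of windows and was also found in that of Ass1 only. None of the 5 windows held CCAAT or TATAAA, which were in 37.4% and 13.6% of all windows. A match of letters is no evidence of binding.

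The listed genes around Odc1 in polyamine metabolism were mostly lower as well. That list was drawn up with earlier results of these data known, so its share and median are a description. Of 18 tested, 10 were lower and 2 higher (66.7% beside 47.1% of all genes tested), with a median log2 fold change of -0.48 beside 0.01 over all genes tested, and -0.36 with the length correction. Srm, spermidine synthase, was at 77.3, 95.5 and 78.7 CPM against 204, 173.6 and 238 CPM. Its groups were far apart, with a log2 fold change of -1.29 (SE 0.13, edgeR adjusted p = 3.66e-05). Amd1, which provides the aminopropyl donor, was lower with -0.45 (SE 0.11), and Sms, spermine synthase, with -0.40 (SE 0.12). The call of Sms ended without AAV9-hFNDC4 replicate 3 (-0.34) or AAV9-CTRL replicate 3 (-0.34). Amd1 has a near-identical copy, Amd2, so the split of reads between them is uncertain.

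Antizymes and their inhibitors set the amount of Odc1 protein. Oaz1, the antizyme that sends Odc1 to the proteasome, was at 432 ± 37.5 against 939 ± 106 CPM (log2 fold change -1.12, SE 0.12, edgeR adjusted p = 4.01e-05), and Oaz2 was lower with -0.52 (SE 0.11). Of the antizyme inhibitors, which spare Odc1, Azin1 was lower with -0.69 (SE 0.14) and Azin2 higher with 1.25 (SE 0.32, edgeR adjusted p = 0.00724). Spermidine is used to modify the translation factor Eif5a. Eif5a was lower with -0.96 (SE 0.11, edgeR adjusted p = 7.77e-05), and so were the enzymes of the modification, Dhps with -0.64 (SE 0.12) and Dohh with -1.28 (SE 0.14, edgeR adjusted p = 4.83e-05). With the length correction Dhps no longer passed (-0.27). Of the exon bases of Dohh, 21.6% are shared with another annotated gene.

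Among catabolic genes of polyamines, Sat1 and Smox, which acetylate and oxidise them, had log2 fold changes of -0.17 (SE 0.13) and -0.08 (SE 0.12), and neither passed. Paox, polyamine oxidase, was higher with 0.68 (SE 0.26, edgeR adjusted p = 0.0488), from 3.07 ± 0.881 to 4.93 ± 0.699 CPM. Its call ended without AAV9-hFNDC4 replicate 1 (0.59) or 3 (0.68), without AAV9-CTRL replicate 1 (0.66) or 3 (0.52), with the length correction (0.58) and with a filter of 1 CPM in 3 libraries (0.68). Atp13a3, a carrier of polyamines into cells, was lower with -0.59 (SE 0.14).

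**Figure D4:**
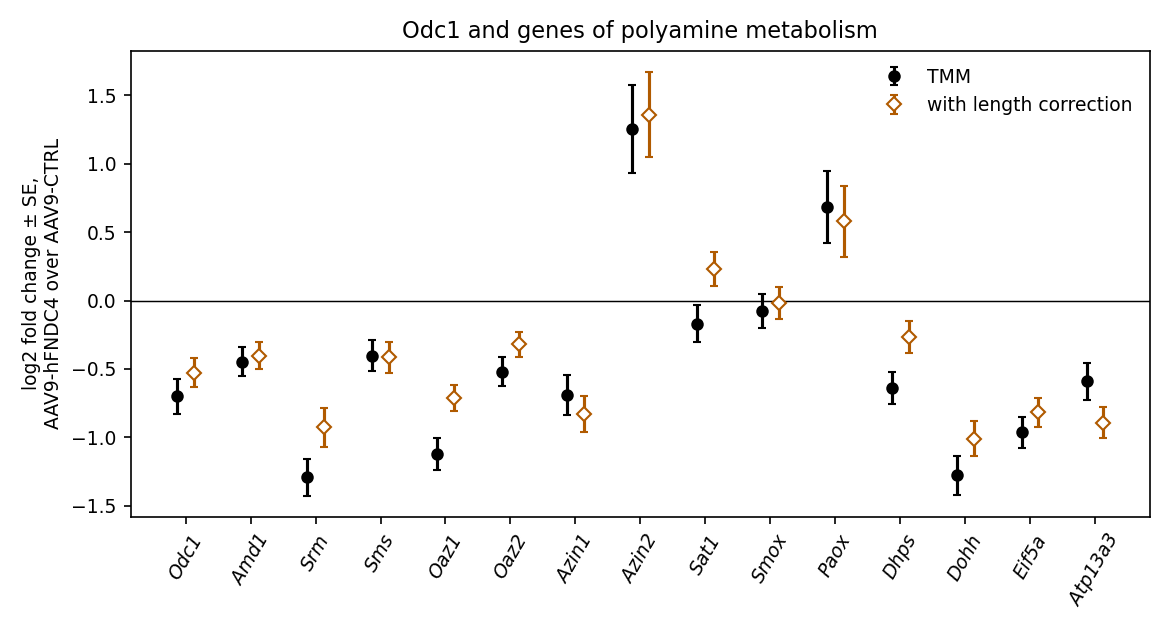
Log2 fold change with its SE, AAV9-hFNDC4 over AAV9-CTRL, of Odc1 and 14 genes of polyamine metabolism, from the TMM fit (filled circles) and with the length correction (open diamonds). Synthesis genes, antizymes, and Eif5a with its modifying enzymes lie below 0 in both fits, Azin2 and Paox lie above, and Sat1 changes sign with the correction.

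Ornithine can also become proline or glutamate. Of 11 tested genes of the urea cycle, ornithine and proline, 4 were lower and 2 higher, 54.5% beside 47.1% of all genes tested. Oat, ornithine aminotransferase, was at 135 ± 12.4 against 197 ± 11.8 CPM (log2 fold change -0.54, SE 0.11, edgeR adjusted p = 0.00143). Pycrl, a reductase of the last step to proline, was lower with -0.81 (SE 0.12). Its mitochondrial relative Pycr1 was higher with 0.42 (SE 0.16, edgeR adjusted p = 0.0429), and Aldh18a1, which makes proline precursors from glutamate, with 0.40 (SE 0.14, edgeR adjusted p = 0.0326).

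Pycrl kept its call in all 14 alternatives, and Pycr1 and Aldh18a1 did not. Pycr1 lost its call without AAV9-hFNDC4 replicate 2 (0.28) or 3 (0.45), without AAV9-CTRL replicate 1 (0.40) or 2 (0.37), with limma-voom (0.41) and with the length correction (0.40). Aldh18a1 lost it without AAV9-hFNDC4 replicate 2 (0.27) or AAV9-CTRL replicate 2 (0.29). Cps1, the first enzyme of the liver urea cycle, was lower at 0.209 ± 0.110 against 0.710 ± 0.187 CPM. Its log2 fold change of -1.75 (SE 0.58) rests on 3 to 32 counts per library, and the call ended without AAV9-hFNDC4 replicate 1 (-1.96) or 3 (-1.37) and without AAV9-CTRL replicate 1 (-1.49) or 3 (-1.86). None of 6 hepatocyte markers reached 1 CPM in at least 3 libraries, and their sum, which includes Cps1, was 0.109 to 0.347 CPM against 0.988 to 1.94 CPM.

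The receptor of nitric oxide had hardly any counts. Gucy1a1 and Gucy1b1, the subunits of soluble guanylate cyclase, had 0 and 1 counts in the AAV9-hFNDC4 libraries and 3 and 0 counts in the AAV9-CTRL libraries, and Prkg1, the cyclic GMP-dependent kinase of smooth muscle, had 9 against 10. Prkg2, the other cyclic GMP-dependent kinase of the list, was at 200 ± 30.3 against 179 ± 19.9 CPM and did not pass (log2 fold change 0.16, SE 0.13). It was singled out after its values were seen. Of 8 tested genes of cyclic GMP signalling, 1 was higher and 1 lower, 25% beside 47.1% of all genes tested. Pde5a, the phosphodiesterase that breaks down cyclic GMP, was higher at 9.80 ± 1.05 against 5.97 ± 1.78 CPM (log2 fold change 0.72, SE 0.22, edgeR adjusted p = 0.0194). Its call ended without AAV9-hFNDC4 replicate 1 (0.65) or 3 (0.71), without AAV9-CTRL replicate 1 (0.63) or 3 (0.60), and with the length correction (0.36).

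Vasp, a target of the kinase that binds actin, was lower with -0.43 (SE 0.11, edgeR adjusted p = 0.00747), and -0.27 with the length correction, which ended its call. Pde1b had 0.85 (SE 0.36, edgeR adjusted p = 0.0687). It did pass when AAV9-hFNDC4 replicate 2 (1.06) or AAV9-CTRL replicate 2 (1.36) was left out, with DESeq2 (0.85), with limma-voom (0.94) and with no low-count filter (0.86). Adh5, which breaks down S-nitrosoglutathione, had -0.19 (SE 0.11), and 0.11 with the length correction.

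Of 20 tested genes known to regulate Nos2 or Arg1, 9 were higher and 5 lower, 70.0% in all beside 47.1% of all genes tested. This share is a description, since the list was chosen with earlier results of these data known. Tlr4, the receptor for bacterial lipopolysaccharide, was at 85.2, 95.1 and 82.2 CPM in the AAV9-hFNDC4 libraries against 54.8, 40.8 and 36.2 CPM. Its groups did not overlap, with a log2 fold change of 0.99 (SE 0.15, edgeR adjusted p = 0.000291). Il1r1, the interleukin-1 receptor, was higher with 0.82 (SE 0.13, edgeR adjusted p = 0.000349), and Hif1a, the oxygen-regulated factor, with 0.49 (SE 0.11). The transcription factors Stat3 (0.38, SE 0.11), Cebpb (0.35, SE 0.10) and Cebpd (0.62, SE 0.22) were also higher, as were the interferon-gamma receptor subunits Ifngr1 (0.43, SE 0.12) and Ifngr2 (0.37, SE 0.11). These 5 genes lost their call without AAV9-hFNDC4 replicate 3, with log2 fold changes of 0.33, 0.35, 0.59, 0.41 and 0.37 in that order. Cebpb (0.35), Cebpd (0.54) and Ifngr2 (0.35) also lost it without AAV9-CTRL replicate 3, and Cebpd without AAV9-hFNDC4 replicate 2 (0.61) or AAV9-CTRL replicate 1 (0.45). With the length correction Stat3 (0.14) no longer passed. The ligands were scarce, with 0 counts of Il1b, Ifng and Il4 in the AAV9-hFNDC4 libraries and 3, 1 and 4 counts in the AAV9-CTRL libraries.

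The lower regulators were Tnf, Klf4, Il13, Rela and Pparg. Tnf, a cytokine that induces Nos2, was at 3.15 ± 0.779 against 9.31 ± 2.13 CPM, with a log2 fold change of -1.56 (SE 0.25, edgeR adjusted p = 0.000448). Klf4, a factor of the alternative macrophage programme, was lower with -0.60 (SE 0.15). Il13, which induces Arg1, had 0, 0 and 4 counts against 11, 10 and 16, with a log2 fold change of -3.24 (SE 0.97). Its call ended without AAV9-hFNDC4 replicate 1 (-2.68) or 2 (-2.70) or AAV9-CTRL replicate 3 (-3.02). Rela, the NF-κB subunit, was lower with -0.31 (SE 0.10), which ended without AAV9-hFNDC4 replicate 1 (-0.27) or 3 (-0.30), without AAV9-CTRL replicate 1 (-0.26) or 3 (-0.30), with the length correction (-0.21) and with no low-count filter (-0.30). Pparg, with -0.34 (SE 0.10), lost its call without AAV9-hFNDC4 replicate 1 (-0.33) or 3 (-0.35) and with the length correction (-0.19). Leaving out AAV9-hFNDC4 replicate 3 lowered the count of higher regulators to 3, and leaving out AAV9-CTRL replicate 3 lowered it to 5. Over all genes the count of higher genes also fell, from 3240 to 2512 and 2299 in the same fits. The count of lower regulators was 2 without AAV9-hFNDC4 replicate 1 and 3 without AAV9-hFNDC4 replicate 3 or AAV9-CTRL replicate 3. Over all genes the count of lower genes fell from 3668 to 3206, 3060 and 2974 in those fits.

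Over all 8 pathway lists, 93 genes outside the set were tested, of which 16 were higher and 34 lower, 53.8% in all beside 47.1% of all genes tested. With the length correction 13 were higher and 26 lower. Their median log2 fold change was -0.18. Without AAV9-hFNDC4 replicate 3 the count of higher genes was 6, and without AAV9-CTRL replicate 3 it was 10. Over all genes tested, 2512 and 2299 were then higher, against 3240 with all libraries.

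**Figure D5:**
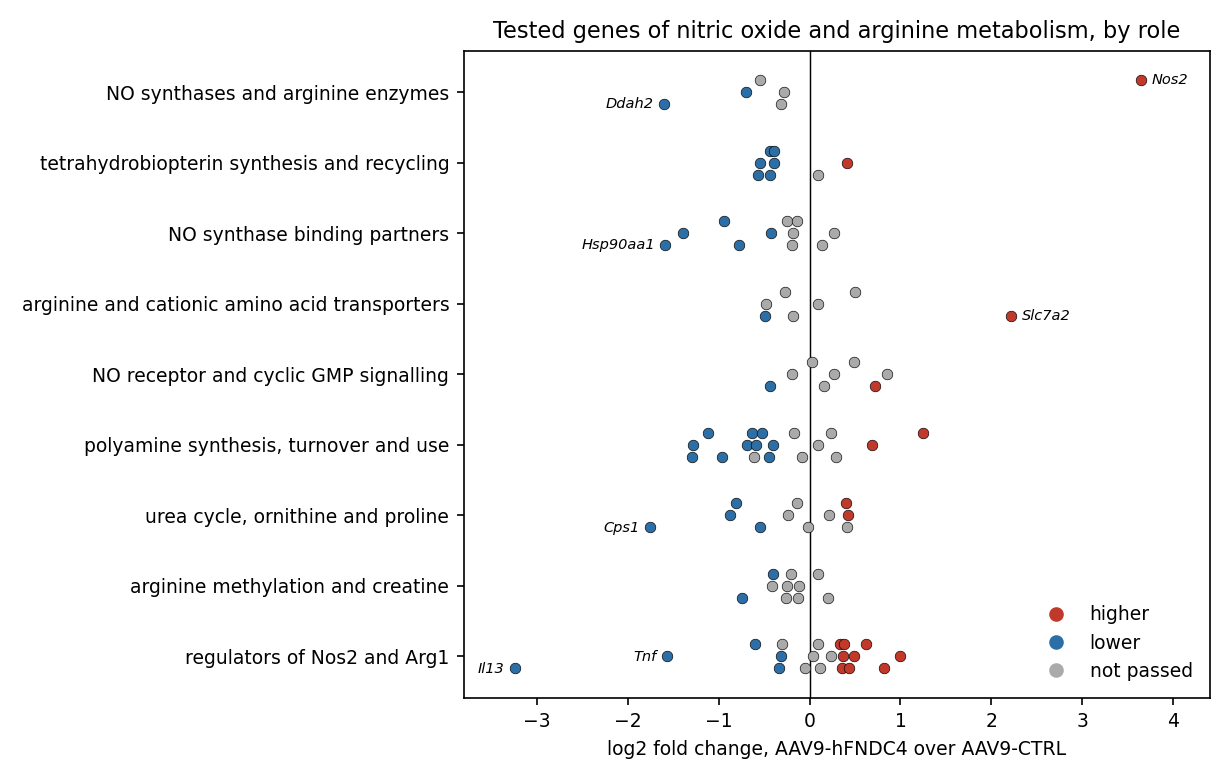
Log2 fold change, AAV9-hFNDC4 over AAV9-CTRL, of each tested gene, in rows by role with the set itself on top, coloured by whether it passed as higher or lower (edgeR, adjusted over all genes). Nos2 (3.64) and Slc7a2 (2.22) stand to the right of all others, and the polyamine row lies mostly left of 0.

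The genes most like Nos2 were looked for by the root mean square difference in log2 CPM over the 6 libraries, with each gene centred on its own mean. Among named genes with a mean of at least 1 CPM, the 5 nearest were Kctd16 (0.482), Mboat2 (0.538), Gem (0.623), Gpr35 (0.780) and Sspo (0.807). Kctd16, a subunit associated with GABA-B receptors, was at 16.9, 65.7 and 23.7 CPM in the AAV9-hFNDC4 libraries and 2.40, 3.70 and 2.33 CPM in the AAV9-CTRL libraries. Its 6 libraries stood in the same order as those of Nos2. Gem, a small GTPase, was at 6.68, 20.4 and 8.83 CPM against 2.14, 3.31 and 1.14 CPM, in that order too. Gpr35, a G protein-coupled receptor, was at 24.0, 62.8 and 30.1 CPM against 6.77, 10.1 and 5.80 CPM, and also kept it. These genes were picked for their likeness to Nos2, so their order and direction restate the choice. Mboat2 reached the mean of 1 CPM only through the AAV9-hFNDC4 libraries, at 2.18 ± 1.92 CPM against 0.315 ± 0.201 CPM.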

How the data were processed

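RNA-seq was measured in 6 libraries, 3 per group, and per the labels' protocols RNA came from TRIzol extraction and libraries from a VAHTS Universal V6 RNA-seq kit. The authors deposited raw read counts per gene symbol, with no normalization. Per the submitters' processing notes, fastp, HISAT2, HTSeq, R 3.2.0 and DESeq2 were used with GRCm38 (mm10). The sources used here do not give the annotation release, the strand setting or the treatment of reads that match several genes.

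In edgeR 4.0.16 (R 4.3.3), filterByExpr kept 14663 genes, TMM scaled the libraries, and the groups were compared with the robust quasi-likelihood F test, with p-values adjusted by Benjamini and Hochberg over all genes tested (threshold 0.05). CPM used TMM-normalized library sizes, and the SE is the log2 fold change divided by the square root of F. Levels per kilobase used exon unions of GENCODE vM21 basic, which is also the source of gene coordinates. A count of 0 was taken to allow up to 3 counts, which covers counting error only. On simulated counts over 14663 genes for this comparison, 80% of genes changed 2-fold and 41% of those changed 1.5-fold were recovered. The changed genes, 100 per fold, were drawn from genes with a mean of at least 1 CPM, so these shares do not cover genes below it. No other genes were changed, while 47.1% of all genes were called in the data. The adjustment over all genes is thus stricter in the simulation, and these shares are not the recovery in the data.

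The genes of the set, the 8 pathway lists, the 8 marker lists and the rule for named genes were chosen with earlier results of these data known. Named were, per pathway list, the 4 genes with the smallest p, all genes of a direction with 5 or fewer calls, and the 5 genes most like Nos2. Others are named as further examples chosen after their values were seen, and 5 genes that the rule or these examples would name are not reported here. The alternatives were RLE or upper-quartile scaling, no low-count filter, at least 1 CPM in 3 libraries, DESeq2 1.42.0, voom in limma 3.58.1, the replicate number as a block, a loess correction for transcript length (span 0.4, with a length for 91.3% of tested genes), and each library left out in turn.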

Additional observations from a re-analysis of the deposited data

How the results depend on the processing

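Of 73 tested genes followed through the alternatives, 34 kept direction and side of the threshold in all of the 14 alternatives that tested them, and Odc1 and Ddah2 are among them. Genes that changed direction with the length correction were Adh5 (0.113), Gchfr (0.0876), Pcbd2 (0.0523), Calm2 (0.211), Calm3 (0.0219), Slc7a1 (-0.213) and Sat1 (0.231). Gch1 changed direction without AAV9-hFNDC4 replicate 2 (-0.175) or AAV9-CTRL replicate 2 (-0.0539), as did Slc7a1 (-0.0970 and -0.155), and leaving out each library gave ranges of -0.175 to 0.235 for Gch1 and -0.155 to 0.269 for Slc7a1. In the set, Nos2 was not called without the low-count filter, which left 0 genes higher by edgeR, while DESeq2 and limma-voom each called 1. The cause was not tested. Leaving out each library in turn gave 1 gene of the set higher and 2 to 4 lower. Of the pathway genes, 6 to 16 were then higher and 27 to 38 lower, and of all genes 2299 to 3501 higher and 2974 to 3896 lower. Same-numbered libraries showed no sign of pairing, as their deviations from the group mean correlated at -0.0872, -0.202 and -0.0585. Other pairs gave -0.0638 to 0.131. Deviations within a group depend on one another, so this check cannot exclude pairing. With the replicate number as a block, 1 gene of the set was higher and 2 lower, 11 pathway genes were higher and 30 lower, and 2663 of all genes were higher and 3080 lower. Under that block Pycr1, Aldh18a1, Slc7a3, Paox, Rela, Pparg, Gchfr and Ifngr2 were not called. Depth limits Nos3, with 11 to 34 counts per library, and Nos1, Arg2 and Ddah1, with at most 11.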
